A study of Mus musculus with 9 samples.

Results

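The 3 lung arrays that carry replicate number 1, from the control, 24 h and 48 h groups, were compared with the 6 arrays that carry number 2 or 3. All 9 arrays of the study therefore entered, 3 on one side and 6 on the other, and each side held the 3 treatment groups in equal parts. The members follow the replicate number in the labels, and the comparison itself was chosen with earlier results of these data known. The animals were C57BL/6 mice. Lungs of the exosome groups were collected 24 h or 48 h after 10 µg of protein of B16-F10 exosomes, vesicles shed by a mouse melanoma line, was given by tail vein. Control lungs formed the remaining group, and no label says what those mice were given. Tissue was stored in RNA-later before extraction. The labels call the samples biological replicates and mention 3 mice at each time and an experiment done in triplicate. They do not say whether an array held 1 mouse or a pool, or whether number 1 marks an experiment, a day or a hybridisation batch, and they give no hour of collection. A p-value here thus measures the spread between arrays and not the spread between repeats of a whole set. Names written inside the 9 files matched their treatment groups. The files numbered 1 carry no number there, whereas the other 6 do. In the authors' series table, all 9 columns hold these values under another treatment label (within 0.051), apart from 273 probe sets of 1 column. The groups were exchanged whole: control values stand under 24 h, 24 h values under 48 h and 48 h values under control. There the number is kept in 7 of 9 columns, but control replicates 1 and 2 carry each other's number, so results are also given without those arrays.

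Many of the largest gene differences between the sets lay in the molecular clock, an autoregulatory loop of transcription factors that runs in lung as in other tissues. ARNTL with CLOCK or its paralog NPAS2 activates genes through E-box elements, among them the Period and Cryptochrome genes whose products repress the pair, and the REV-ERB genes Nr1d1 and Nr1d2 whose products repress Arntl. Further genes are driven from D-box elements by the activators DBP, TEF and HLF, against which the repressor NFIL3 competes. A separate group concerned heat shock proteins, chaperones that heat shock factor HSF1 induces when proteins unfold, whereas Cirbp encodes an RNA-binding protein known for induction by mild cold.

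Intensities below are log2 values of the deposited signal plus an offset of 16, quantile normalised between arrays. Differences are number 1 minus numbers 2 and 3 with the treatment group as a block, and fold changes are on the same offset scale. Of 16748 probe sets tested, 2161 (12.9%) differed at an adjusted p under 0.05, 1065 higher (6.36%) and 1096 lower (6.54%) on the arrays numbered 1. These belonged to 1711 genes. The sign was the same in all 3 treatment groups for 2160 of the 2161. In 2000 of them the 3 arrays lay entirely above or below the other 6, which was the case for 22.8% of all tested probe sets. Most differences were small. The median absolute difference of the called probe sets was 0.508, with 787 beyond 1.5-fold and 136 beyond 2-fold, of which 97 were higher and 39 lower. Without control replicate 1 the count fell to 285, without 24 h replicate 1 to 521 and without 48 h replicate 1 to 678. It was 1058 without control replicate 3, 1413 without control replicate 2 and 85 without the control group. Every one of the 2161 differences kept its sign in each of those fits. They were selected on these same arrays, so agreement in sign between groups or fits follows largely from the selection and is no added support.

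**Figure D1:**
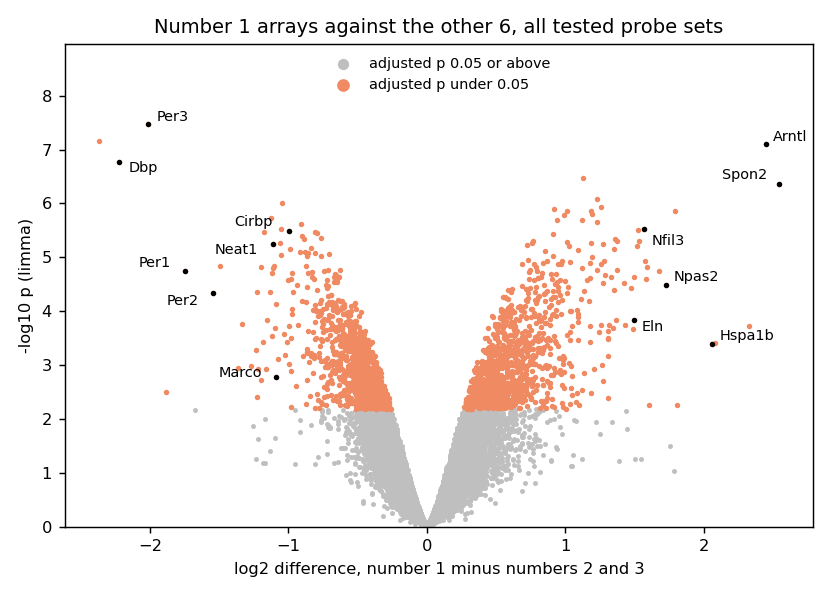
Log2 difference of the arrays numbered 1 from the other 6 (horizontal axis) against minus log10 of the limma p (vertical axis) for the 16748 tested probe sets, coloured where the adjusted p was under 0.05. Clock genes lie at both ends, Arntl at 2.45 and Dbp at -2.22.

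Principal components show where each array lay. The comparison was chosen with this structure known, so they describe the split and are no separate support for it. Along the first principal component (41.1% of variance) the scores of number 1 were -27.1, -26.33 and -25.16, and those of the other 6 arrays 5.45 to 18.96. The second, with 18.2%, ran from -17.56 to -6.42 for number 2 and from 5.67 to 25.24 for number 3. Replicate number at 3 levels accounted for a median of 50.6% of a probe set's sum of squares and treatment group for 11.9%. Each had an equal share of degrees of freedom (25%). The split of number 1 from the rest, which uses fewer degrees of freedom, had a median of 24.7%. After treatment means were removed, arrays numbered 1 correlated with each other at 0.547 to 0.632, those numbered 2 at 0.352 to 0.526 and those numbered 3 at 0.273 to 0.427, over the 3 pairs of each number. These correlations are across probe sets, which are not independent.

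**Figure D2:**
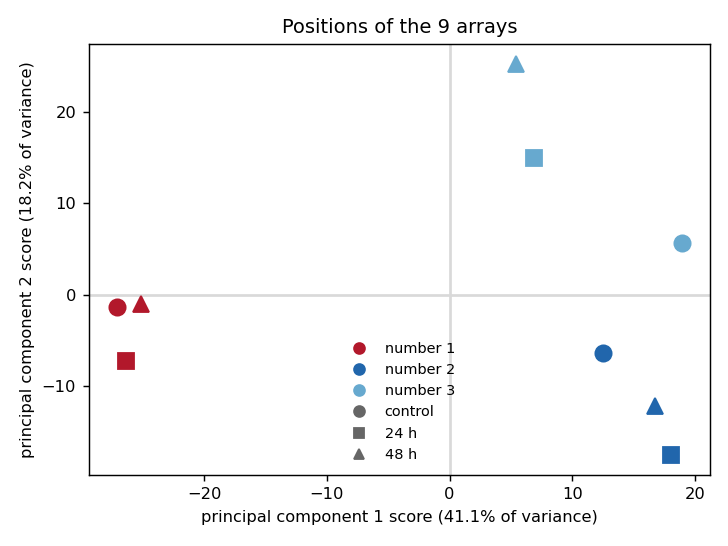
First and second principal component scores of the 9 arrays over all tested probe sets, with colour for replicate number and shape for treatment group. The arrays numbered 1 form a cluster on the left, and numbers 2 and 3 part along the vertical axis.

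Set against number 2 alone, the arrays numbered 1 differed at 2728 probe sets (16.3%), and against number 3 alone at 1983 (11.8%). Both use the same 3 arrays numbered 1. Of the 2161 differences, 1727 passed against number 2, 1421 against number 3 and 1163 against each. No probe set passed between numbers 2 and 3, although 3025 had an unadjusted limma p under 0.05 where 837.4 would be so by chance alone.

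Several measures made on the arrays themselves moved with number 1. Of 4 hybridisation controls 3 were lower on those 3 arrays, at 9058 to 9916 against 10471 to 12839 for CreX, 2620 to 2830 against 2894 to 3849 for BioDn and 828 to 958 against 976 to 1284 for BioC, while BioB overlapped (588 to 693 against 635 to 975). The poly-A controls Dap and Lys added to the RNA were higher. They read 4507 to 5657 against 3624 to 4463 for Dap and 764 to 1044 against 513 to 669 for Lys. Phe (1080 to 1550 against 764 to 1113) and Thr (1566 to 2480 against 1181 to 1666) were higher on average but overlapped. The 3'/5' ratio of beta-actin, a measure of RNA integrity and labelling, was 1.16 to 1.22 against 1.24 to 1.38, and the highest signal on an array 13174 to 13970 against 15817 to 18507. Apart from BioB, Phe and Thr, none of these measures overlapped between the sides. For each of those 7, exact permutation within treatment groups gave p = 0.037, the smallest that 27 arrangements give (adjusted p = 0.0988 over 32 measures). Phe and Thr had the same p and adjusted p by this permutation. The share of Present calls overlapped (71.5% to 72.6% against 69.9% to 72.0%), as did the Gapdh 3'/5' ratio. Their part in the gene differences was not tested.

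Lung identity held on every array. The surfactant genes Sftpa1, Sftpb, Sftpc and Sftpd, the club cell gene Scgb1a1 and the alveolar type 1 gene Ager were Present on all 9, with intensities between 12.94 and 13.87. The sex chromosome genes gave no sign of a difference in sex between the sets: Xist, the transcript that silences an X chromosome, ran from 5.53 to 5.94 on the arrays numbered 1 and 5.54 to 6.38 on the others, and the Y-linked Eif2s3y from 8.96 to 9.24 and 8.93 to 9.63.

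Among the clock and PAR bZIP genes, 4 were higher and 12 lower on the arrays numbered 1, of 21 measured. The median difference was -0.736, beside -0.0233 over all 9677 genes, of which 5.15% were higher and 6.61% lower when each gene was read from its brightest tested probe set. Activators of the main loop were higher, and the Period, REV-ERB and PAR bZIP genes lower. The promoters shown first are those in which a clock element was found among the 4 clock genes with the smallest p, Per3, Arntl, Dbp and Nr1d2. RefSeq windows of 300 bases on GRCm38.p6, reaching 250 bases before the transcript start, were searched on both strands for the E-box CACGTG, the D-box TTANGTAA and the ROR element core AGGTCA, the site shared by REV-ERB and ROR receptors. Capitals mark matches, 2 D-boxes at -205 and -158 in Per3 (chr4:151044616-151044915, minus strand) and 1 ROR core at -77 in Nr1d2 (chr14:18239057-18239356, minus strand).
Per3: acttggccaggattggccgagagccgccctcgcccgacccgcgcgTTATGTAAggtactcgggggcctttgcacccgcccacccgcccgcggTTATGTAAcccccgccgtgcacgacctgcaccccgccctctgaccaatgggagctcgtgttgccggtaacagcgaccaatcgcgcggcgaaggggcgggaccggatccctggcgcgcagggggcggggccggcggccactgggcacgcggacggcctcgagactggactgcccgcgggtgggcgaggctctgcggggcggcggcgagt
Nr1d2: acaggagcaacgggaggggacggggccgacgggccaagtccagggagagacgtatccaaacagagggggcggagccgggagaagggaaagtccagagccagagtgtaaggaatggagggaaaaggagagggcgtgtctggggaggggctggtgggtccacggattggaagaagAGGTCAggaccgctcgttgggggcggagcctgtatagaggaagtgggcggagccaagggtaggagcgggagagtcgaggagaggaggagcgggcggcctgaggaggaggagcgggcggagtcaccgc
The searched windows of Arntl and Dbp held none of the 3 motifs. Here and below only the first listed window of a gene was searched, and Arntl has 2. Of 32851 windows of this length, 7.2% held the E-box, 2.3% the D-box and 16.3% the ROR core. Over the list, the D-box lay in 1 of 9 lower genes with a window and 0 of 4 higher ones. The E-box lay in 2 of 9 and 0 of 4, and the ROR core in 2 of 9 and 1 of 4. Of 4 list genes that did not pass, 2 held the E-box and 0 the D-box or ROR core. These matches are letters in a window and not measured sites.

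Arntl, which encodes the BMAL1 activator, had intensities of 8.27, 8.50 and 8.60 on the control, 24 h and 48 h arrays numbered 1. On the other 6 arrays the lowest was 5.58, the median 6.01 and the highest 6.38. The 3 arrays stood above all others by nearly as much in each treatment group. The difference was 5.47-fold (95% CI 4.29 to 6.96, adjusted p = 0.000448), and replicate number held 96.82% of the gene's sum of squares. Npas2, the CLOCK paralog, read 6.60, 6.09 and 7.37 against 4.71, 5.0 and 5.13 (lowest, median, highest), with 3 of 3 Present calls against 1 of 6. That was 3.32-fold higher (2.33 to 4.72, adjusted p = 0.00418), against a side on which 5 of 6 arrays gave no Present call. Clock itself rose less, at 9.53, 9.46 and 9.51 against 8.51, 8.84 and 9.21, or 1.57-fold (1.29 to 1.90, adjusted p = 0.0142). The call for Clock was lost in 2 of the 9 fits that left out an array, while Arntl and Npas2 passed in all 9.

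The D-box repressor Nfil3 followed the activators, at 7.22, 7.23 and 7.69 against 5.54, 5.79 and 6.05. It was called Present on 3 of 3 arrays numbered 1 and on 1 of the other 6, and was 2.97-fold higher (2.35 to 3.77, adjusted p = 0.0022), with the same limit. Neither Npas2 nor Nfil3 was tested under the stricter Present filters, under which 14 clock genes were called. Its opponent Dbp read 9.63, 9.24 and 8.65 against 11.34, 11.36 and 11.52. Dbp was thus low on all 3 arrays, at 0.215-fold (0.169 to 0.272, adjusted p = 0.000698), and a further probe set gave 0.194-fold. Tef, of the same family, stood at 10.86, 10.52 and 10.70 against 11.41, 11.80 and 11.93, or 0.481-fold (0.401 to 0.578, adjusted p = 0.00276). Dimmer Tef probe sets gave 0.772-fold and 1.09-fold, and neither passed. Hlf was at 0.601-fold (0.471 to 0.766, adjusted p = 0.0198) and its arrays overlapped, since control replicate 1 at 8.71 exceeded the lowest of the 6, 8.66.

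The Period genes, whose products repress ARNTL and CLOCK, were all low. Per1 read 8.80, 7.94 and 8.79 against 10.04, 10.20 and 10.67, Per2 8.03, 7.07 and 8.04 against 9.04, 9.20 and 9.56, and Per3 8.16, 7.66 and 7.86 against 9.74, 9.85 and 10.12. The 24 h array was the lowest of the 3 for each, and no array numbered 1 reached the range of the others. The folds were 0.299 (0.215 to 0.415, adjusted p = 0.00344) for Per1, 0.343 (0.247 to 0.476, adjusted p = 0.00483) for Per2 and 0.247 (0.207 to 0.296, adjusted p = 0.000448) for Per3, whose D-boxes are shown above. Cry2, their partner repressor, read 8.32, 7.93 and 8.22 against 9.04, 9.25 and 9.31, or 0.479-fold (adjusted p = 0.00232). Its paralog Cry1 did not pass, with values of 8.12, 7.79 and 8.54 inside the range of 7.56 to 8.91 and a fold of 0.973 (0.635 to 1.49, adjusted p = 0.941). The interval leaves room for a difference in either direction.

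Of the receptors that bind the ROR element, the repressors were low. Nr1d1 read 8.71, 8.44 and 7.90 against 9.10, 9.29 and 9.74, and Nr1d2 11.36, 11.12 and 10.77 against 11.96, 12.12 and 12.28. Neither overlapped, at 0.497-fold (0.373 to 0.661, adjusted p = 0.0121) and 0.485-fold (0.423 to 0.557, adjusted p = 0.00181). The activator Rora was at 0.984-fold (0.834 to 1.16, adjusted p = 0.908). Bhlhe40, an E-box repressor, was at 0.533-fold (0.466 to 0.609, adjusted p = 0.00201), with 9.52 to 9.64 on the arrays numbered 1 and 10.40 to 10.68 on the others. Bhlhe41, its dim paralog, did not pass (0.838-fold, 0.649 to 1.08), nor did Csnk1e (0.941-fold) and Csnk1d (0.998-fold), kinases that phosphorylate PER proteins. Among clock outputs, the deubiquitinase Usp2 was at 0.574-fold (adjusted p = 0.0067) and the mitotic kinase Wee1 at 0.613-fold (adjusted p = 0.0187), both without overlap.

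The 16 called clock genes had 9 further tested probe sets. Of these, 8 had the same sign and 7 passed on their own, and none passed in the opposite direction. The count of called members was 13 to 16 when any array was left out, 9 without the control group, 11 without the 24 h group and 14 without the 48 h group. None passed under the number and group labels of the authors' series table, where no probe set of any gene passed by limma. Groups exchanged whole leave the blocks of that fit the same. What differs there is the exchanged number of control replicates 1 and 2, besides 273 probe sets of 1 column.

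**Figure D3:**
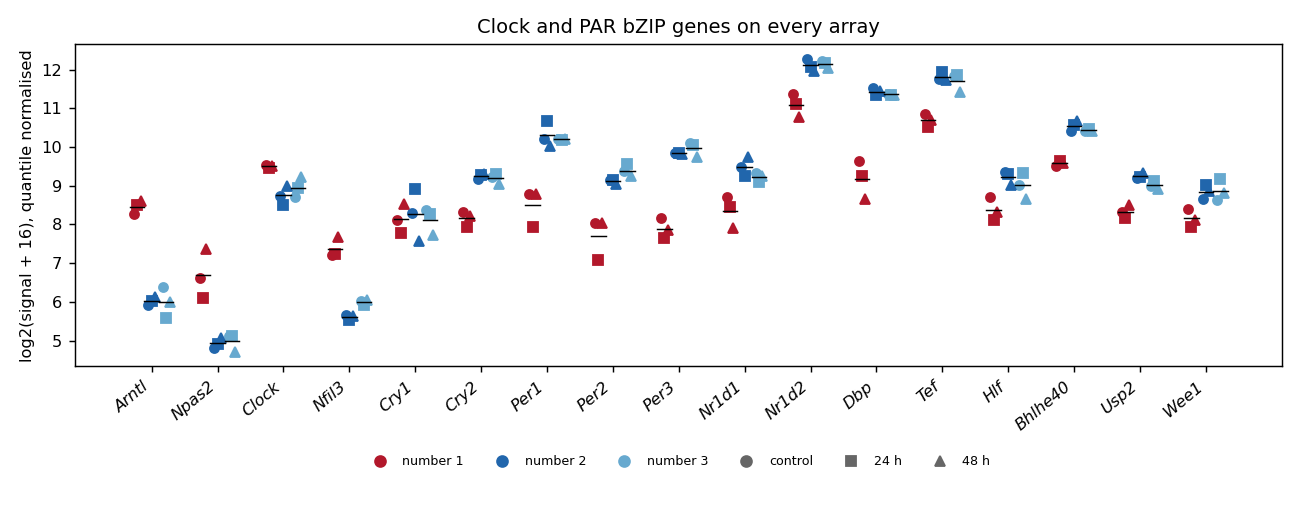
Log2 intensities of 17 clock and PAR bZIP genes on each array, with colour for replicate number, shape for treatment group and a bar at the mean of the 3 arrays of a number. Arntl, Npas2, Clock and Nfil3 are high and the Period, REV-ERB and PAR bZIP genes low for number 1, Cry1 overlaps, and numbers 2 and 3 lie close together.

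Most heat shock genes were higher. Of 19 measured temperature and heat shock genes, 11 were higher and 1 lower on the arrays numbered 1, and 18 of 19 had a difference above 0 (median 0.448). The 1 lower was Cirbp. The promoter of Hspa1b, the gene of the list with the largest difference, is shown because it holds the consensus pair GAANNTTC of a heat shock element, in capitals, at -104 (GRCm38.p6, chr17:34959189-34959488, minus strand). This gene and motif were chosen after the values were seen, and 7.9% of all windows hold such a match.
Hspa1b: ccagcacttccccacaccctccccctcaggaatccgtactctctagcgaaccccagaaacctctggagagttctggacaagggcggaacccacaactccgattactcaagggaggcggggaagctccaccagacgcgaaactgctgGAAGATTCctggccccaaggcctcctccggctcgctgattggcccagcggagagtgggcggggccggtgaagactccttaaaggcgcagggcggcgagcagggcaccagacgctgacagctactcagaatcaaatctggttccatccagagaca
Of the list's genes with a RefSeq window, 6 of 10 higher genes and 3 of 5 that did not pass held the motif.

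Hspa1b encodes an inducible HSP70 chaperone. Its arrays numbered 1 read 12.07, 10.34 and 11.69, and the other 6 had a lowest value of 8.78, a median of 9.15 and a highest of 10.32. Control replicate 1 was highest, and 24 h replicate 1 lay barely above 48 h replicate 3. The difference was 4.18-fold (95% CI 2.32 to 7.53, adjusted p = 0.0125), and 2 further probe sets gave 4.24-fold and 5.03-fold. Hspa1a, its near-identical copy, read 9.89, 9.19 and 9.75 against 7.69, 7.97 and 8.61, or 2.99-fold (2.19 to 4.08, adjusted p = 0.00373), and the probe sets may not separate the copies. Hsph1, an HSP110 that recharges HSP70, was more even, at 10.37, 10.04 and 10.49 against 8.68, 9.05 and 9.18 (2.42-fold, 1.97 to 2.98, adjusted p = 0.00232).

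The remaining chaperones differed less. Hspa4l of the HSP110 family was at 1.52-fold, the HSP40 cochaperone Dnaja1 at 1.45-fold, the HSP90 activator Ahsa1 at 1.44-fold (1.26 to 1.64, adjusted p = 0.00866) and the HSP90 cochaperone Chordc1 at 1.39-fold. Stip1, which joins HSP70 to HSP90, was at 1.38-fold, the constitutive HSP70 Hspa8 at 1.36-fold, the mitochondrial cochaperonin Hspe1 at 1.29-fold and the endoplasmic reticulum chaperone Hspa5 at 1.22-fold. For each of these 8 genes the 3 arrays lay above the other 6. In the 9 fits that left out an array, however, Hspa5 passed in 0, Hspe1 in 1, Stip1 in 2, Chordc1 in 3 and Dnaja1 in 4. All but Ahsa1 were named after their values were seen, because their list rank fell outside the rule for named genes.

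Cirbp ran the other way and with little scatter, at 9.07, 9.03 and 9.03 against 9.95, 9.99 and 10.32. All 3 arrays were low, at 0.501-fold (0.430 to 0.583, adjusted p = 0.0022). In all, 10 further probe sets of called heat shock genes had the same sign and 7 of them passed. The count of 12 called members was 7 without control replicate 2 or 3, 6 without 24 h replicate 1 and 3 without control replicate 1 or 48 h replicate 1. Without the control group it was 2. Hspa1a, Hsph1 and Cirbp passed in all 9 fits that left out an array, and Hspa1b in 7.

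Genes of nuclear RNA and splicing were lower where they differed. Of 21 measured, 7 were lower and 0 higher, with a median of -0.338 (by limma, none was higher at an unadjusted p under 0.05 either). Neat1, the RNA that builds nuclear paraspeckles, read 10.96, 11.22 and 11.04 against 11.95, 12.21 and 12.41, or 0.463-fold (0.386 to 0.555, adjusted p = 0.00232). Snrnp70, a protein of the U1 splicing particle, read 9.18, 9.23 and 9.28 against 9.79, 9.97 and 10.25 (0.596-fold, 0.501 to 0.709, adjusted p = 0.00666). Both were low on every array numbered 1. Clk4, a kinase of splicing factors, was at 0.618-fold (adjusted p = 0.0108), and Nktr, a cyclophilin with an arginine-serine domain, at 0.685-fold (adjusted p = 0.00644). A further Nktr probe set gave 0.89-fold and did not pass. Hnrnpa1 (0.593-fold), Srsf5 (0.672-fold) and Son (0.780-fold), RNA-binding proteins of splicing that were named after their values were seen, completed the 7. Hnrnpa1 overlapped, as 24 h replicate 2 read 10.24 and 48 h replicate 1 10.29. Its further probe sets gave 0.68-fold, which passed, and 1.01-fold, which did not. Without control replicate 1 the count was 2.

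**Figure D4:**
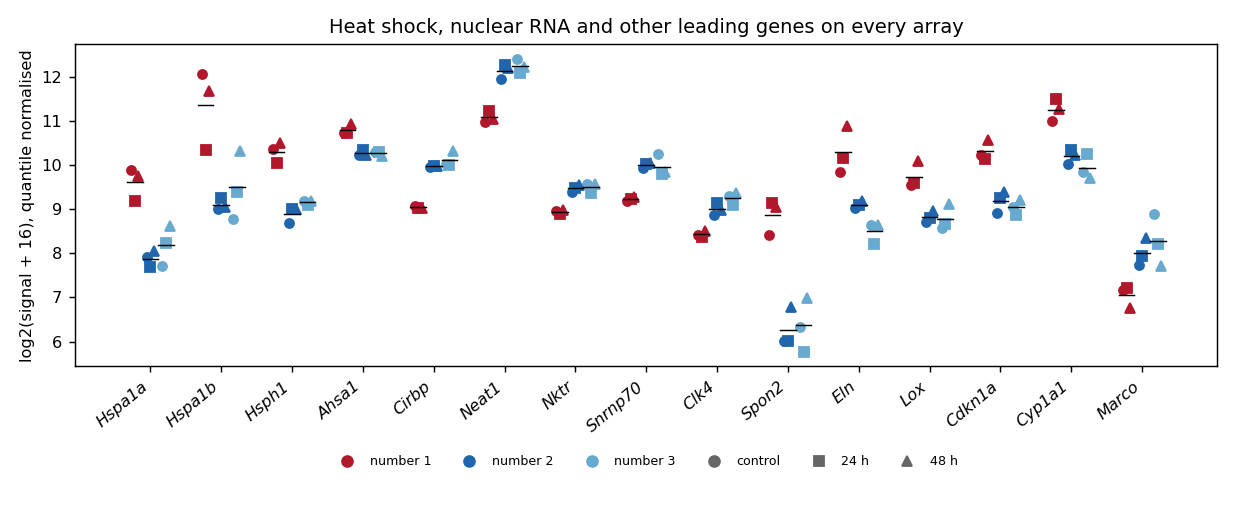
Log2 intensities of heat shock, splicing and other leading genes on each array, with colour for replicate number, shape for treatment group and a bar at the mean of the 3 arrays of a number. Hspa1b shows the widest scatter among the arrays numbered 1 (10.34 to 12.07) and Cirbp the least (9.03 to 9.07).

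Outside these groups, the largest difference of any named gene was that of Spon2, which encodes the secreted matrix protein spondin 2. It read 8.41, 9.13 and 9.05 against 5.77, 6.18 and 6.99, or 5.84-fold (4.30 to 7.93, adjusted p = 0.00122). The 3 arrays stood far above the rest. Eln, which encodes elastin, read 9.85, 10.16 and 10.88 against 8.21, 8.83 and 9.19, or 2.83-fold (1.95 to 4.10, adjusted p = 0.0079). Cdkn1a, the cell cycle inhibitor p21, read 10.22, 10.12 and 10.57 against 8.86, 9.13 and 9.39, or 2.29-fold (1.94 to 2.71, adjusted p = 0.00182), and a further probe set gave 3.01-fold. Cyp1a1, a cytochrome P450 induced through the aryl hydrocarbon receptor, read 10.98, 11.50 and 11.27 against 9.70, 10.12 and 10.35 (2.28-fold, 1.88 to 2.76, adjusted p = 0.00232). Both passed in all 9 fits that left out an array.

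Further genes higher by more than 2-fold had varied roles. Washc4, a subunit of the endosomal WASH complex, was at 2.90-fold (2.26 to 3.71), Sntb2, a syntrophin of the dystrophin complex, at 2.83-fold (2.11 to 3.78) and the orphan nuclear receptor Nr2c2 at 2.68-fold (2.01 to 3.57). Further probe sets of Sntb2 gave 1.45-fold to 1.60-fold, and a dimmer one of Nr2c2 gave 1.25-fold and did not pass. Rgs18, a regulator of G protein signalling abundant in platelets, was at 2.58-fold (1.84 to 3.62). The secretory vesicle GTPase Rab27b was at 2.39-fold (1.90 to 3.00), Magt1, a subunit of the glycosylation machinery, at 2.34-fold (2.00 to 2.75), and Sprr1a, a cornified envelope protein, at 2.47-fold (1.72 to 3.55).

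Of the genes lower by about the same factor, Lsm7, a subunit of an RNA decay and splicing complex, read 7.57, 8.07 and 7.48 against 8.30, 8.99 and 9.65 (0.390-fold, 0.248 to 0.612, adjusted p = 0.0203). Its 6 reference arrays were themselves widely spread. The noncoding Snhg11, a host of small nucleolar RNAs, was at 0.426-fold (0.329 to 0.553, adjusted p = 0.00483) and Hspg2, the basement membrane proteoglycan perlecan, at 0.436-fold (0.349 to 0.544, adjusted p = 0.0033). A further Hspg2 probe set gave 0.720-fold and did not pass. Rasd2, a small GTPase, read 7.04, 7.08 and 7.04 with 0 of 3 Present calls, against 8.03 to 8.44 with 6 of 6. With a side not called Present no exact fold can be given. As measured, the 6 arrays were 2.25-fold higher (adjusted p = 0.0022). In the usual direction that is 0.444-fold (0.370 to 0.531), and the gene passed the filter through those 6 arrays. Tex11, a meiosis gene, was at 0.481-fold, and AY036118 and Gm6958, for which no role is given here, were at 0.425-fold and 0.458-fold.

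Over all genes whose brightest probe set was called, 459 had a further tested probe set. All further probe sets had the same sign in 309 of them, at least 1 passed the same way in 143, and at least 1 passed the opposite way in 29.

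Lists of cell type markers held fewer calls than the clock and heat shock lists, although the neutrophil, skeletal muscle and platelet lists had larger medians than the heat shock list. In bulk lung RNA, fewer cells of a type and less RNA per cell cannot be told apart. Of all genes, 5.15% were higher and 6.61% lower. Of all tested probe sets, 5174 of 16748 had an unadjusted limma p under 0.05. A list near these shares differs no more than genes at large. Matrix genes leaned upward. Of 31 fibroblast and matrix genes, 4 were higher (12.9%) and 1 lower (3.2%), and 24 had a difference above 0. The array means of the list did not overlap (10.96 to 11.16 against 10.73 to 10.92). Besides Eln, the higher ones were Lox, which crosslinks elastin and collagen (9.54, 9.59 and 10.08 against 8.57 to 9.11, 1.92-fold, 1.67 to 2.19, adjusted p = 0.00191), Loxl1 of the same family (1.59-fold) and the fibrillar collagen gene Col3a1 (1.32-fold). The protease inhibitor Timp3, named after its value was seen, was lower at 0.803-fold. Further probe sets gave 1.53-fold and 1.01-fold for Lox and 0.865-fold to 1.23-fold for Timp3, and none of these passed. Smooth muscle genes had 2 higher (11.8%) and 0 lower of 17, the actin Actg2 at 1.61-fold (adjusted p = 0.0111) and the calponin Cnn1 at 1.57-fold.

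Some lymphocyte markers were lower. Of 11 B cell genes, 3 were lower and 0 higher (median -0.446), the tetraspanin Cd37 at 0.674-fold (0.569 to 0.799, adjusted p = 0.0146) and the receptor signalling genes Blnk (0.733-fold) and Blk (0.700-fold). The array means of the list overlapped, at 7.87 to 8.50 against 8.22 to 8.76, with 48 h replicate 1 lowest. Of 12 natural killer and cytotoxic genes, 3 were lower and 0 higher (median -0.274), the receptor Klra8 at 0.622-fold (adjusted p = 0.0121), the granule gene Nkg7 at 0.688-fold and perforin, Prf1, at 0.712-fold. The array means of the natural killer list overlapped too, at 6.91 to 7.16 against 6.93 to 7.51. Further probe sets of Cd37 (0.852-fold) and Prf1 (0.874-fold) did not pass. Of 15 T cell genes 1 was lower (6.7%, near the 6.61% of all genes), the coreceptor Cd8b1 at 0.655-fold. However, 12 of the 15 lay below 0, and the array means of the T cell list did not overlap (6.8 to 7.0 against 7.01 to 7.22). Among 10 plasma cell genes the antibody heavy chain Igha was lower at 0.581-fold and the secretory factor Xbp1 higher at 1.25-fold. The Igha arrays overlapped, but its further probe sets, at 0.568-fold and 0.525-fold, passed. Further Xbp1 probe sets gave 0.877-fold to 1.18-fold and none passed. In the 9 fits that left out an array, Igha passed in 2 and Xbp1 in 1.

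Myeloid genes split. Of 21 alveolar macrophage and myeloid genes, the scavenger receptor Marco (7.17, 7.21 and 6.77 against 7.71, 8.07 and 8.89, 0.470-fold, 0.321 to 0.690, adjusted p = 0.0246), the integrin Itgax (0.703-fold) and the lysosomal Cd68 (0.779-fold, named after its value was seen) were lower. The chemokine receptors Cx3cr1 (1.65-fold) and Ccr2 (1.55-fold) were higher. The chemokine Ccl17 was the only dendritic cell gene of 8 to pass (12.5%), at 1.58-fold and with overlapping arrays. Neutrophil genes had a median of 0.700 but 0 of 14 passed by limma. At an unadjusted p under 0.05 there were 5, beside 5174 of all 16748 probe sets. The array 48 h replicate 1 alone carried their level, with a list mean of 10.35 against 8.68 to 9.42 on the other 8 arrays. Mmp9, a gelatinase of neutrophil granules, read 9.68 there and 7.14 to 8.24 elsewhere. Platelet genes were above 0 in 11 of 11 cases (median 0.689). Of these 1 passed (9.1%), the platelet chemokine Ppbp at 1.87-fold (1.26 to 2.77, adjusted p = 0.0462). Their array means overlapped, at 8.65 to 9.20 against 7.94 to 8.70.

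Epithelial and endothelial markers differed little. None of 16 alveolar type 2 and surfactant genes passed at an adjusted p under 0.05 by limma. At an unadjusted p under 0.05 there were 5, beside 5174 of all 16748 probe sets. The list means nevertheless did not overlap (11.90 to 11.94 against 12.00 to 12.12, median -0.101). The lowest p belonged to Etv5, a transcription factor of type 2 cells, at 0.609-fold (adjusted p = 0.0512). Of 11 alveolar type 1 genes 1 was lower (9.1%, beside 6.61% of all genes), the junction gene Cldn18 at 0.761-fold (adjusted p = 0.0212). A further Cldn18 probe set, however, was higher at 1.48-fold (adjusted p = 0.0386). Of 9 ciliated cell genes, 2 of the axoneme were lower (22.2%), Lrrc23 at 0.705-fold and Rsph1 at 0.715-fold. Endothelial genes gave 1 lower of 21 (4.8%), the sialomucin Emcn at 0.792-fold, and the list mean ran from 10.98 to 11.10 on the 9 arrays. Of 8 mesothelial genes 5 lay above 0 (median 0.496). The 1 that passed (12.5%) was lower, the keratin Krt18 at 0.796-fold, which other epithelia share. Without the control group, no cell type list described here kept more than 1 called member.

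Fat and striated muscle genes, which can come from tissue around the lung, varied by array. Of 16 white adipocyte genes 2 were higher (12.5%, beside 5.15% of all genes), both with overlapping arrays. These were the lipogenic Thrsp (1.82-fold, adjusted p = 0.0271) and the adipokine Adipoq (1.76-fold, adjusted p = 0.0489). Of 7 brown adipocyte genes 2 were higher (28.6%), Cidea (1.64-fold, adjusted p = 0.00581) and the deiodinase Dio2 (1.75-fold, adjusted p = 0.0148). A further Dio2 probe set stood at 0.895-fold. Of 24 cardiac muscle genes, 21 lay above 0 (median 0.337). At an unadjusted p under 0.05 there were 8, beside 5174 of all 16748 probe sets. By limma, the muscle protein Smpx was higher (2.20-fold, 1.49 to 3.25, adjusted p = 0.0224) and the myosin Myh7 lower (0.691-fold, adjusted p = 0.0167). Each was 4.2% of the cardiac list, no more than the 5.15% and 6.61% of all genes. None of 12 skeletal muscle genes passed at an adjusted p under 0.05 by limma (3 at an unadjusted p), with Ckm, the muscle creatine kinase, nearest (8.70, 10.38 and 8.65 against 6.90 to 8.43, adjusted p = 0.0526). The skeletal list mean was 8.36 on 24 h replicate 1 and 6.15 to 6.83 on the other 8 arrays.

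**Figure D5:**
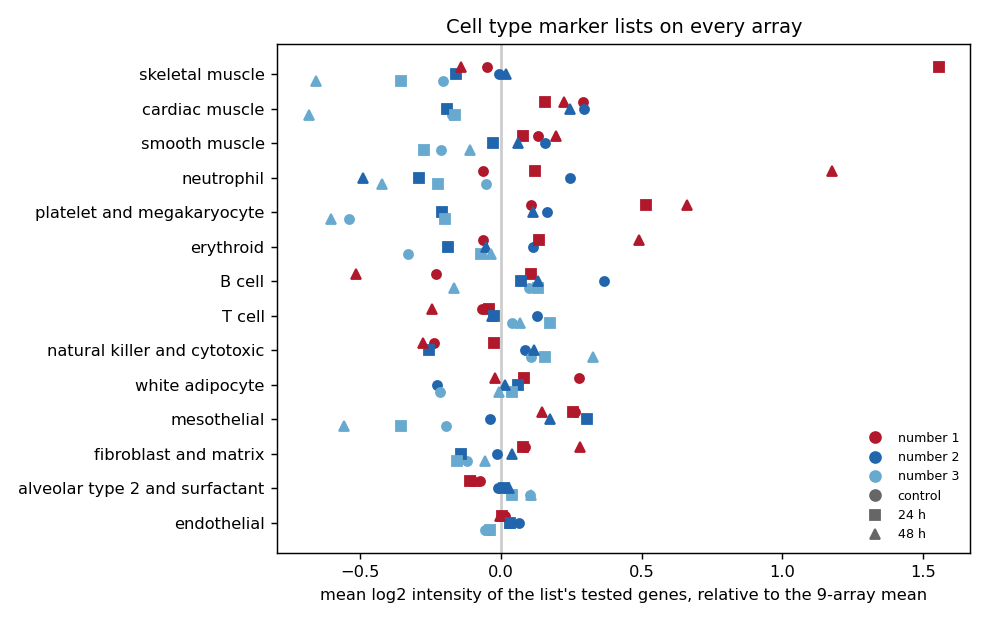
Mean log2 intensity of the tested genes of 14 cell type marker lists on each array, relative to the mean of the 9 arrays, with colour for replicate number and shape for treatment group. The skeletal muscle list stands apart on 24 h replicate 1 and the neutrophil list on 48 h replicate 1, while the endothelial list is nearly level.

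Signalling and stress lists beyond heat shock gave scattered calls, beside 5.15% of all genes higher and 6.61% lower. The immediate early list had 8.7% higher and 0% lower, near those shares. The glucocorticoid list had 21.1% and 5.3%, and the detoxification list 13.0% and 17.4%. Of 23 immediate early genes, 2 were higher, the AP-1 subunit Fos (11.15, 10.42 and 11.11 against 9.60, 9.90 and 10.16, 2.05-fold, 1.56 to 2.70, adjusted p = 0.00995) and the phosphatase Dusp1 (1.44-fold). Of 19 glucocorticoid response genes, 4 were higher and 1 lower. Besides Cdkn1a and Dusp1, the kinase Sgk1 was at 1.27-fold and the monooxygenase Fmo2 at 1.57-fold, and the metallothionein Mt1 was lower at 0.715-fold. Of 23 detoxification genes, Cyp1a1, Fmo2 and Gclm of glutathione synthesis (1.31-fold) were higher. The epoxide hydrolase Ephx1 (0.747-fold), the glutathione transferase Gstm1 (0.798-fold), the quinone reductase Nqo1 (0.741-fold) and the cytochrome P450 Cyp2b10 (0.793-fold) were lower, the last 3 named after their values were seen.

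Interferon genes had no common direction. The type I list had 14.3% higher and 4.8% lower, and the interferon gamma list 8.7% and 4.3%, beside 5.15% and 6.61% of all genes. Of 21 type I interferon genes, Usp18 (1.29-fold), Ifi27l2a (1.41-fold) and the antiviral Rsad2 (1.50-fold) were higher and Ifit3 (0.637-fold, adjusted p = 0.0204) lower. Of 23 interferon gamma and antigen presentation genes, the guanylate-binding Gbp6 (1.78-fold) and the class II regulator Ciita (1.30-fold) were higher, whereas the class II gene H2-Eb1 was lower at 0.8-fold. Pigr, which carries antibodies across epithelium, was higher at 1.80-fold (1.56 to 2.08, adjusted p = 0.0026) among 11 complement and acute phase genes, with a further probe set at 0.982-fold.

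Housekeeping lists held few calls. The respiratory chain list had 4.9% higher and 2.4% lower and the cell cycle list 2.9% each way. Neither exceeded the 5.15% and 6.61% of all genes. None of 31 cytosolic ribosomal protein genes passed by limma at an adjusted or unadjusted p under 0.05 (median 0.025, list means of 12.36 to 12.42 on all arrays). Of 41 respiratory chain genes, Sdhb of complex II (1.24-fold) and the ATP synthase gene Atp5c1 (1.23-fold) were higher and Sdha of complex II lower (0.778-fold). The Atp5c1 call was lost in all 9 fits that left out an array, and a dimmer Atp5c1 probe set was lower at 0.753-fold. A further Sdha probe set gave 0.95-fold and did not pass. Of 35 cell cycle genes, the replication helicase Mcm7 was lower (0.789-fold) and the cytokinesis gene Anln higher (1.25-fold). Elovl5, a fatty acid elongase, was lower at 0.796-fold and alone among 20 lipid synthesis genes. Adjusted p of the called genes named without one among the interferon and housekeeping lists lay between 0.0181 and 0.046.

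Whether the set difference depended on treatment was tested with a treatment by number interaction. No probe set passed the joint test (0% of 16748 at an adjusted p under 0.05 by limma, smallest adjusted p = 0.0645). At an unadjusted p under 0.05 there were 499, where 837.4 would be so by chance alone. In the single term for 24 h against control, 2 passed, and in that for 48 h 0 passed. The first was Rptn, which encodes the cornified envelope protein repetin. It read 9.43 on 24 h replicate 1 and 4.72 to 5.55 on the other 8 arrays, a log2 difference of differences of 4.42 (95% CI 3.65 to 5.19, adjusted p = 0.0433). Each term rests on 1 array numbered 1. Tnni2 and Mylpf, of fast skeletal muscle, followed the same array at 9.76 and 9.39 against highest values of 5.98 and 6.4 elsewhere, and did not pass (adjusted p = 0.0661 each in the joint test). Clec4d, a myeloid lectin, and the cytokine gene Il1b were high on 48 h replicate 1 alone, at 9.63 and 10.01 against at most 7.73 and 7.95 elsewhere (adjusted p = 0.0645 and 0.0971).

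Numbers 2 and 3 could not be separated gene by gene at the threshold (0% called). The 5 leading genes in each direction were named by rule and none passed. Upk3b, a mesothelial uroplakin, read 10.12, 10.63 and 10.36 on number 2 and 9.31, 9.18 and 8.85 on number 3 (2.39-fold, 1.90 to 3.00, adjusted p = 0.115), with 10.15 to 10.33 on number 1. Msln, mesothelin of the lining of the pleura, was at 1.94-fold, the claudin Cldn15 at 1.56-fold, the chemokine Cxcl14 at 1.51-fold and the egg coat gene Zp1 at 1.52-fold. Toward number 3 the zinc finger genes Zfp942 (0.493-fold, 0.428 to 0.568, adjusted p = 0.0687) and Zfp131 (0.497-fold), the pregnancy glycoprotein gene Psg28 (0.429-fold), Ranbp9 (0.653-fold) and Rbbp9 (0.701-fold) leaned.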

How the data were processed

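Lung RNA of 9 samples was measured on mouse 430 family arrays, 1 array a sample. For 22690 probe sets, the deposited files give intensity as Signal, the call of Present, Marginal or Absent, and that call's p-value, per the file headers. The trimmed mean of the deposited intensity was 500.1 to 500.2 on each array, and the sources used here do not state the software, background step or summary method. The labels describe an array with more transcripts than these probe sets, so the chip type is uncertain.

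Control probe sets (64) were left out, 16 was added to the deposited signal, and log2 values were quantile normalised. Probe sets Present on at least 3 of 9 arrays entered a two-sided limma fit (version 3.58.1, R 4.3.3) with treatment group as a block and Benjamini-Hochberg adjustment over all tested probe sets (threshold 0.05). Numbers 2 and 3 were compared with replicate number at 3 levels. A symbol came from GEO's platform annotation, which gave 1 symbol for 20393 probe sets, several for 691 and none for 1606. Of a gene's tested probe sets, the one brightest on average was used. Array measures were compared by exact permutation within treatment groups. The number of arrays limits the precision.

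Named genes were the 15 largest differences in each direction, with arrays that did not overlap and 1 sign in all 3 groups, up to 4 called members of each of 42 lists with the smallest p (2 where none passed), all clock and sex chromosome genes, and the 5 leading genes of the other comparisons. Not all are described. The comparison, its members and the lists were chosen with earlier results of these data known. Promoters were RefSeq windows of GRCm38.p6. The procedure was tested on simulated data. Alternatives covered normalisation, offset, filter, model, arrays left out, averaging of probe sets and the authors' series table.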

Additional observations from a re-analysis of the deposited data

Results flagged for a closer look

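Of 145 values examined over the 6 arrays numbered 2 or 3, 12 had 1 array farther from the rest than Dixon's 95% critical value allows, and chance gives about 1 in 20. On 24 h replicate 2, Per1 read 10.67, Gstm1 12.65, Nkg7 7.42, Hnrnpa1 10.24 and Xist 5.54, and the share of Present calls was 69.9%. On 48 h replicate 2, Fmo2 read 11.26 and Nqo1 7.0. On 48 h replicate 3, Cirbp read 10.32 and Myl1, a fast muscle myosin light chain, 5.82. Stip1 read 9.06 on 24 h replicate 3, and Hsph1 8.68 on control replicate 2.

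The difference of number 1 from numbers 2 and 3 was larger at 24 h than in controls, by the interaction term, for Rptn (log2 4.42, adjusted p = 0.0433) and for a probe set annotated with 2 symbols (log2 4.35, adjusted p = 0.046). That probe set read 9.70 on 24 h replicate 1 and 5.24 to 5.83 on the other 8 arrays. Each rests on 1 array.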

How the results depend on the processing

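No paired analysis was possible because the replicate number is itself the comparison. Against 2161 called probe sets (1065 higher, 1096 lower), no filter on dim probe sets gave 1409 (706 and 703), probe sets averaged per gene 1265 (592 and 673), and the arrays without the control group 85 (47 and 38), without the 24 h group 367 (208 and 159) and without the 48 h group 746 (441 and 305). Fits without 1 array gave 285 to 2513 called, 150 to 1274 higher and 135 to 1239 lower. The number and group labels of the authors' series table gave 0 called in either direction. They exchange the groups whole and also the numbers of control replicates 1 and 2. The other 9 settings stayed within 1.5 times, among them number at 3 levels (3144) and treatment group as a random block (2375). Fits without 1 array called 13 to 16 clock, 3 to 12 heat shock and 2 to 10 splicing genes. Without the control group these counts were 9, 2 and 1, without the 24 h group 11, 4 and 3, without the 48 h group 14, 4 and 5, and 0 each with the series table labels. The interaction called 3 probe sets without the quantile step and 18 without the filter, and numbers 2 and 3 differed at 0 in each setting tried (0 to 0 without 1 array). Of 110 named called genes, 67 passed under every one of the 11 processing and model alternatives in which they were tested. A gene that a stricter Present filter left out was counted over the remaining alternatives. In each fit without 1 array, 35 of the 110 passed. The sign turned for genes that did not pass: Cry1 without 1 array (-0.505 to 0.341, log2), the control group (0.0488) or the 24 h group (0.34) and in the series table (0.0537), Rora without 1 array (-0.109 to 0.0953), the 24 h group (0.0952) or with averaging (0.134), and Csnk1d without the quantile step (0.0108), 1 array (-0.0619 to 0.0654) or the 48 h group (0.0208). Averaging also turned Cldn18 (0.0854) and Atp5c1 (-0.0542), whose probe sets disagree. The causes were not tested.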
